A study of Mus musculus with 3 samples.

Results

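The 10 genes described here encode inducible transcription factors: the Fos family (Fos, Fosb, Fosl1, Fosl2), the Jun family (Jun, Junb, Jund), Atf3, Egr1 and Nr4a1. They were taken by gene symbol, and all 10 were found among the 56941 genes of the count table. The genes were chosen by name with their levels and their spread between the libraries already known, so both are given as a description, without a test. The libraries hold polyadenylated RNA of microvascular fragments, short vessel pieces that were freed from the brains of adult wild-type C57BL/6J mice by mechanical and enzymatic dissociation. There is 1 group of 3 replicates, 1 for each mouse, and no treatment, second genotype or comparison tissue. The labels give no sex, age in weeks or handling time, and nothing in them separates the libraries into batches.

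AP-1 is a dimer of basic leucine zipper proteins. A Jun protein pairs with another Jun protein or with a Fos protein, whereas Fos proteins need a partner of another family to bind DNA. The genes of this group are called immediate early genes because growth factors, calcium entry, shear stress or injury switch them on within minutes, from factors already present in the cell, with MAP kinases carrying the signal. Their messengers are short-lived. Egr1 is a zinc finger protein and Nr4a1 (Nur77) an orphan nuclear receptor; both are made in the same early wave. In vessels these factors are known from the response of endothelium and smooth muscle to flow and injury, and in freshly dissociated tissue they are known as markers of a recent stimulus.

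The promoters of 8 of the 10 genes were matched by symbol in the RefSeq promoter table (build GRCm38.p6; Fosl1 and Egr1 were not matched). Each window runs from 250 bases before to 50 bases after the start. The 6 sequences below are shown because 5 of them share one short motif, TGACG, the core of the cyclic AMP response element. The bases end just before the start. TGACG on either strand is in capitals, read as CGTCA where it lies on the opposite strand, except for Jun, where the capitals mark TGACATCA. The places are chr12:85473760-85473889, plus strand for Fos, chr15:101266596-101266845, plus strand for Nr4a1, chr7:19310046-19310175, minus strand for Fosb, chr1:191183334-191183463, minus strand for Atf3, chr8:84978749-84978878, minus strand for Junb and chr4:95052223-95052352, minus strand for Jun.
Fos: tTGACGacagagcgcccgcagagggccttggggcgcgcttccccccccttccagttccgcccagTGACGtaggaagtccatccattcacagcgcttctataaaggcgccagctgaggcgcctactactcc
Nr4a1: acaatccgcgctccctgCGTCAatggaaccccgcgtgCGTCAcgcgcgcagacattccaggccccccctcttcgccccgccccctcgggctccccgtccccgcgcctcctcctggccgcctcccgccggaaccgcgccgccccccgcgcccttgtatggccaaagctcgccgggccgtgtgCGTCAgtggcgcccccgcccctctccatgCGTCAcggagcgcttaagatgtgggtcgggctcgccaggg
Fosb: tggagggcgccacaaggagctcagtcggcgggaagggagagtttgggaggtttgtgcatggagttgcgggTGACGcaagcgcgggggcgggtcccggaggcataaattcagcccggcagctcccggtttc
Atf3: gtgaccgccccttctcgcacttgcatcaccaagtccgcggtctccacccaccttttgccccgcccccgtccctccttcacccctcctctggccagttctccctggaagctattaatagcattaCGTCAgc
Junb: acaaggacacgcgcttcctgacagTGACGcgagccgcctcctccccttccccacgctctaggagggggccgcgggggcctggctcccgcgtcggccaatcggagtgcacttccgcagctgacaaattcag
Jun: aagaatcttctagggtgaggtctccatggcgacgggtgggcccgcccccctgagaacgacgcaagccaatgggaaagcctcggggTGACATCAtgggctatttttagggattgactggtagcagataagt

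TGACG was found on one strand or the other in 5 of the 8 windows, those of Fos, Nr4a1, Fosb, Atf3 and Junb, and it was in 20.8% of all 32851 promoter windows of the table. Counted by gene the share was higher: 34.9% of the 10175 detected genes in the table held it in at least one window, and 32.3% of the 8034 that, like these 8 genes, have a single window. Fos held it at 129 and at 66 bases before the start, and the TATAAA box of Fos began 33 bases before the start. Nr4a1 held 4 copies, each as part of the longer TGCGTCA, which 2.12% of all windows hold; that motif overlaps TGACG. Fosb held 1 copy of the same longer motif on the opposite strand, 54 to 60 bases before the start. The 3 matched genes without TGACG were Fosl2, Jun and Jund. In Jun the related TGACATCA lay 38 to 45 bases before the start, a motif of 3.62% of all windows. The full element TGACGTCA (1.79% of windows), the AP-1 site TGANTCA (7.81%) and the CArG box, the motif of serum response factor (1.63%), were searched on both strands and had no match in the 8 windows, which says only that these letters are not in this stretch. The motifs were chosen after the expression values had been seen, and a match is a description of the letters.

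The libraries were deep, with 128428355 to 150449539 counts, and 13211 genes (23.2% of the table) reached 1 CPM (read counts scaled by TMM to a common library size) in every library, here called detected. Of the 10 genes 9 were detected and Fosl1 was not. All 8 endothelial markers were detected, with summed levels of 12350 to 15480 CPM. All markers of the mural, microglial, astrocyte, neuronal and fibroblast lists were detected as well. Without a comparison tissue, detection therefore does not test the label of the tissue. Mural markers summed to 7188 to 7742 CPM and microglial markers to 4811 to 6348 CPM. Astrocyte markers summed to 920.2 to 1708 CPM, neuronal markers to 94.61 to 116.8 CPM and fibroblast markers to 119.2 to 141.9 CPM. The lists hold different genes, and CPM does not allow for length, so the sums do not rank the cell types of the mixture. In such a mixture more cells of a type and more RNA per cell cannot be told apart, so a level below is that of the fragments as a whole.

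Of the Jun family, Jun, the founding AP-1 protein, had the most counts in every library. There were 24124, 53804 and 42027 counts in replicates 1, 2 and 3, or 185.4, 384.9 and 289.5 CPM. Junb, which often holds back the growth-promoting action of Jun, had 61.28, 129.5 and 103.6 CPM. Both were lowest in replicate 1 and highest in replicate 2, with replicate 3 nearer to replicate 2. Jund, the Jun protein that resting cells make steadily, had 81.96, 109.6 and 87.72 CPM. Its libraries lay closer together than those of the other Jun genes, at 93.09 ± 14.58 CPM (SD, n = 3) against 286.6 ± 99.8 CPM for Jun and 98.13 ± 34.44 CPM for Junb. All 3 genes consist of a single exon. In the GENCODE M21 models (build GRCm38) 52.6% of the exonic length of Jund lies under Gm11175 on the other strand, which had no count in any library. The strand setting of the counting is not named in the sources used here. The absence of counts for Gm11175 therefore does not settle the level of Jund, which stays uncertain. For Jun and Junb such overlap, with Junos and Prdx2, was 7.3% and 7.5%.

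Of the 3 detected Fos genes, Fosl2 was the most even between libraries and Fos the most uneven. Fos, the partner of Jun in the classical AP-1 dimer, had 1782, 12105 and 4736 counts, or 13.69, 86.6 and 32.63 CPM. Fosb, its close relative, had 277, 1259 and 610 counts, or 2.128, 9.007 and 4.202 CPM. Both genes were at least 2-fold higher in replicate 2 than in replicate 3, and replicate 1 was lowest. Fosl2 (Fra-2), a more slowly induced member, had 79.14, 113.7 and 90.74 CPM, in the same order of libraries but within a narrow range. Fosl1 (Fra-1), known from proliferating and transformed cells, had 16, 22 and 25 counts, or 0.123 CPM (95% exact Poisson interval 0.0703 to 0.2), 0.157 CPM (0.0986 to 0.238) and 0.172 CPM (0.111 to 0.254). These intervals overlap, so at this depth no order of the libraries can be read for Fosl1, and they cover counting error only. Its level is uncertain for another reason as well: 57.2% of its exonic length lies under Ccdc85b on the other strand, which had 119 to 161 CPM, and while the library kit keeps the strand of the RNA, no source used here names the strand setting of the counting.

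Atf3, a stress-induced factor of the ATF family that can pair with Jun proteins, had 18.06, 50.86 and 23.85 CPM. Here replicates 1 and 3 lay close together and replicate 2 stood above both. Egr1 had 4194, 25745 and 8384 counts, or 32.23, 184.2 and 57.76 CPM. Nr4a1 had 5471, 31949 and 14270 counts, or 42.04, 228.6 and 98.31 CPM. Egr1 followed Atf3 in having replicate 3 nearer to replicate 1, while in Nr4a1 replicate 3 lay midway on the log scale (deviation 0.00). None of these 3 genes, nor any of the Fos genes other than Fosl1, overlaps the exons of another gene in those models.

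**Figure D1:**
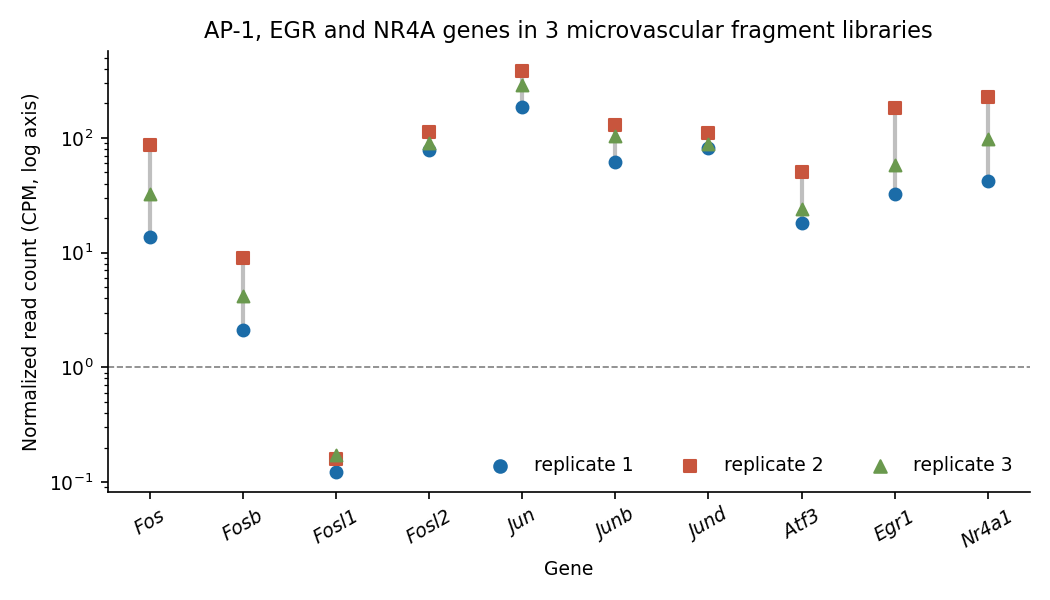
Normalized read count (CPM, log axis) of each of the 10 genes in the 3 libraries; each symbol is 1 library, grey bars span the lowest to the highest, and the dashed line marks 1 CPM. Replicate 2 is highest and replicate 1 lowest in the 9 genes above the line, with wide gaps for Fos, Fosb, Egr1 and Nr4a1 and narrow ones for Fosl2 and Jund.

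The spread between mice divided the genes into an even and an uneven set. The highest library exceeded the lowest 6.32-fold for Fos, 5.72-fold for Egr1, 5.44-fold for Nr4a1, 4.23-fold for Fosb and 2.82-fold for Atf3. It was 2.11-fold for Junb and 2.08-fold for Jun, and only 1.44-fold for Fosl2 and 1.34-fold for Jund. The median of the 10 was 2.44-fold, against 1.2-fold over all detected genes. At 2-fold or more stood 7 of the 9 detected genes, beside 2.41% of all detected genes. Among those with a mean of 10 to 500 CPM it was 6 of 8, beside 1.31%. At 4-fold or more stood 4 of the 9, beside 0.212%. Jun and Junb lay just above the 2-fold limit, and the nearest gene below it was Fosl2, well clear of it at 1.44-fold. A ratio as large as that of Fos was reached by 10 of the 13211 detected genes, Fos included, and one as large as that of Jund by 3228, or 24.4%. Since the genes were chosen with this spread known, the shares describe them and support nothing further.

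**Figure D2:**
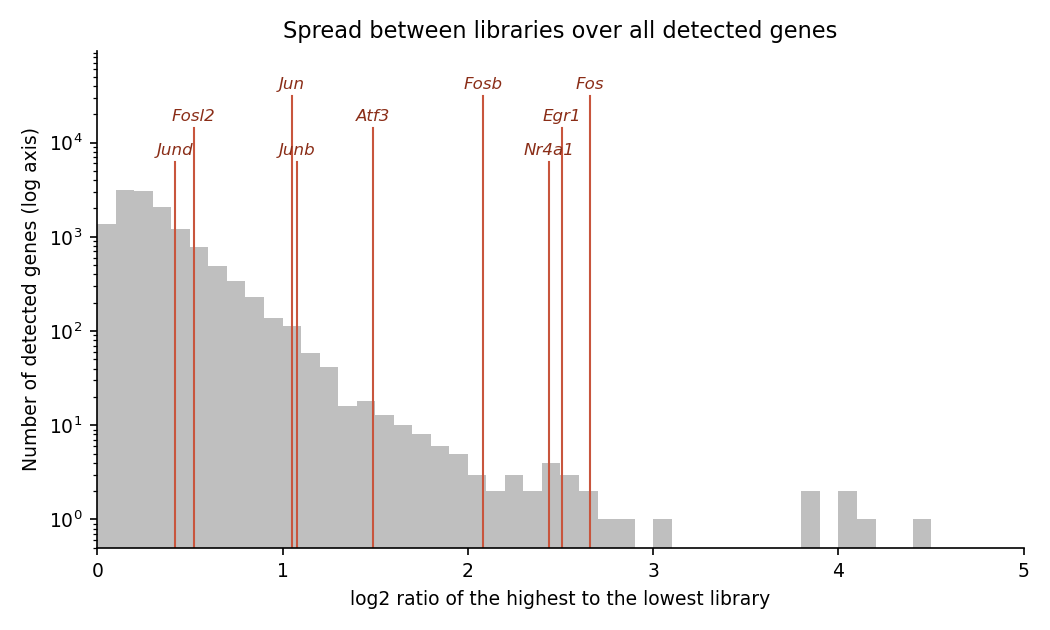
Number of detected genes (log axis) by the log2 ratio of their highest to their lowest library, in steps of 0.1; red lines mark the 9 detected genes of the group. Fosl2 and Jund lie within the bulk of the distribution, while Fosb, Nr4a1, Egr1 and Fos (2.08 to 2.66) lie in its sparse tail.

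All 9 detected genes were lowest in replicate 1 and highest in replicate 2, an order that 16.3% of all detected genes had. Replicate 2 reached at least 2-fold of replicate 1 for 7 of the 9, beside 0.401% of all detected genes. The size of the gap depended on single libraries. Without replicate 2 only Fos (2.38-fold) and Nr4a1 (2.34-fold) still differed by 2-fold or more between the remaining libraries, beside 1.23% of all detected genes, and Atf3 differed by 1.32-fold. Without replicate 1 there were 5, Fos, Fosb, Atf3, Egr1 and Nr4a1 (2.13-fold to 3.19-fold), beside 1.08%. Scaling to the 8 endothelial markers moved the median log2 ratio of replicate 2 to replicate 1, over all detected genes, from 0.01 to -0.19. This scaling gave 5.53-fold for Fos and 4.76-fold for Nr4a1 between those libraries. Jun and Junb then stood at 1.82-fold and 1.85-fold, under the 2-fold limit. On that scale Fosl2 and Jund were lowest in replicate 3 (0.944-fold and 0.881-fold of replicate 1), so the common order held for 7 of the 9. The share of all detected genes with this order was not computed on that scale.

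The 5 matched genes with TGACG in the promoter window spanned 2.11-fold (Junb) to 6.32-fold (Fos), and the 3 without it 1.34-fold (Jund) to 2.08-fold (Jun), so the ranges of the 2 sets did not overlap. The sets are parted only by Junb and Jun, and they overlapped when a library was left out. Without replicate 1 the lowest gene with the motif was Junb at 1.25-fold, below Jun at 1.33-fold. Without replicate 2 it was Atf3 at 1.32-fold, below Jun at 1.56-fold. The motif was picked with these ratios known, and no test was made. Over all detected genes in the promoter table the motif went with no larger ratio. The median ratio of highest to lowest library was 1.18-fold over 3550 genes with TGACG and 1.21-fold over 6625 without, and 1.8% and 2.45% of them reached 2-fold.

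Other RNA differed between the same libraries. Replicate 2, the highest for these genes, was the only one with abundant anterior pituitary messengers, whose 8 markers summed to 20.94, 1452 and 18.35 CPM in replicates 1, 2 and 3. Gh alone had 1233 CPM in replicate 2. Lhb was the only marker of that list not highest there (1.422, 1.216 and 0.9645 CPM). Only Pomc was detected in every library, at 17.73, 104.5 and 14.99 CPM (log2 deviations from its mean -0.77, 1.79 and -1.01). Replicate 1, the lowest, had the most erythroid RNA, with 1088, 133.9 and 62.46 CPM over 5 markers. It also had the largest share of counts from mitochondrial genes, 3.29% against 1.75% and 1.65%. On the log2 scale microglial markers deviated from their own means by 0.15, -0.21 and 0.05 and endothelial markers by -0.16, 0.04 and 0.12. Astrocyte markers deviated by 0.13, 0.23 and -0.36, mitochondrially encoded messengers by 0.71, -0.38 and -0.33 and erythroid markers by 2.38, -0.62 and -1.76. The mean of the 9 detected genes deviated by -0.77, 0.82 and -0.05, and Fos, the most uneven of them, by -1.30, 1.36 and -0.05. A list mean can hide single markers that differ more. The ratios of replicate 2 to replicate 1 were the same to within 0.01-fold when pituitary, erythroid and mitochondrial genes were left out of the library totals (6.32-fold for Fos and 5.71-fold for Egr1). These genes held a small share of the counts, so leaving them out could hardly move the ratios. The step concerns the scaling only. Whether cells of these kinds themselves carried part of the difference was not tested.

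**Figure D3:**
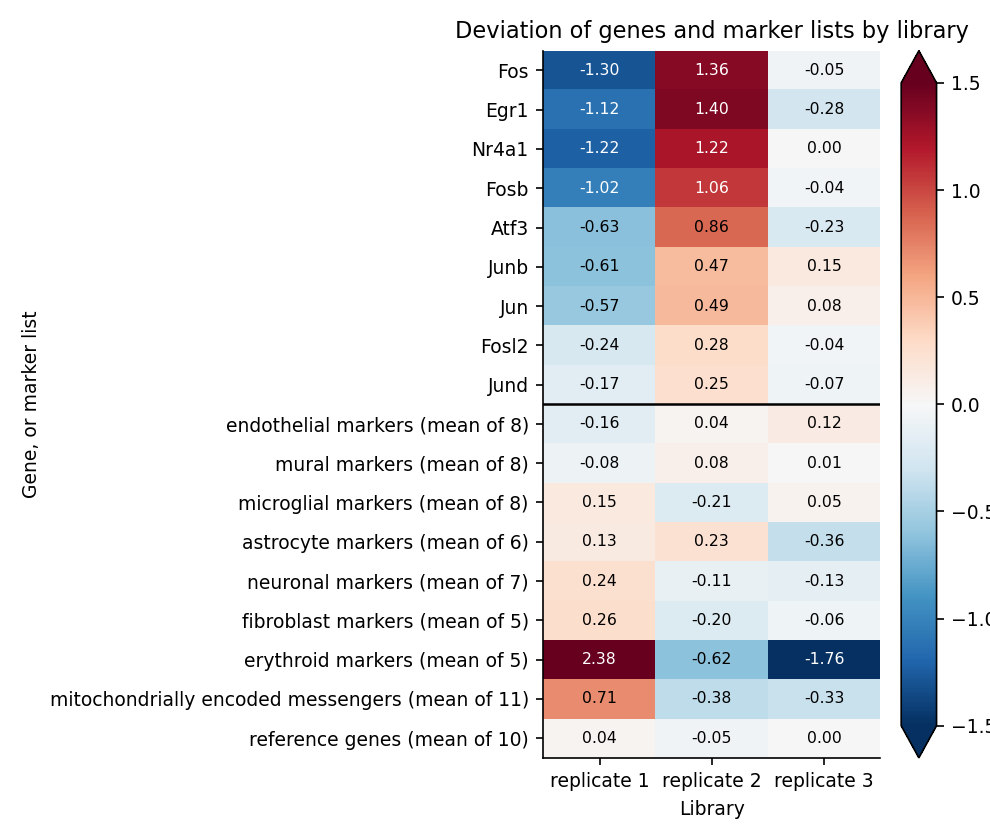
Deviation of each library from the mean of the 3 (log2 CPM; red above, blue below), for the 9 detected genes above the line and for the mean of marker lists below it; values past 1.5 share the darkest colour. The 9 genes go from negative in replicate 1 to positive in replicate 2, while the endothelial, mural and reference lists stay within 0.16 of 0 in each library. The erythroid list (2.38, -0.62 and -1.76) and the mitochondrial list (0.71, -0.38 and -0.33) deviate further.

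Levels of different genes were compared per exonic length, as TPM (counts divided by length, then scaled to one total in each library) over the genes with a GENCODE length. Jun led in every library (200, 424 and 302 TPM), followed by Jund at 169, 231 and 175 TPM. Junb had 91.9, 198 and 150 TPM and Nr4a1 41.3, 229 and 93.1 TPM, so Nr4a1 passed Junb in replicate 2 alone. Egr1 (70.6 ± 64.4 TPM, SD, n = 3), Fos (65.1 ± 57.0 TPM) and Atf3 (49.5 ± 29.1 TPM) came next and overlapped each other widely. With the longest coding transcript as length Fos stood above Egr1. In replicate 1 the order of these 3 was turned round, with Atf3 at 28.9 TPM above Egr1 at 24.8 TPM and Fos at 20.1 TPM. Fosl2 had 33.5 ± 6.82 TPM, Fosb 2.83 ± 2.01 TPM and Fosl1 0.254 ± 0.0396 TPM. Of the 9 neighbouring pairs in this order only Fosl2 against Fosb and Fosb against Fosl1 had values that did not overlap between the libraries, though Jun exceeded Jund and Jund exceeded Junb within each of the 3 libraries. By CPM, which does not allow for length, Jund would fall from rank 2 to rank 5. Its place here, and its part in the Jun family below, are also subject to the unnamed strand setting of the counting.

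The make-up of the Fos family changed with the library more than that of the Jun family. Per exonic length Fos held 40.4%, 73.5% and 57.8% of the Fos family sum in replicates 1, 2 and 3, and Fosl2 held 56.8%, 23.4% and 39.1%. Per length, Fosl2 was thus the leading Fos gene in replicate 1 and Fos in the other libraries. By CPM, without regard to length, Fosl2 led in all 3 libraries, with 83.2%, 54.3% and 71.0% against 14.4%, 41.4% and 25.5% for Fos. Per exonic length Fosb held 2.37% to 2.88% and Fosl1 0.155% to 0.42% of the Fos family sum. On the same per-length scale Jun held 43.4%, 49.7% and 48.2% of the Jun family sum. Junb held 19.9%, 23.2% and 23.9% and Jund 36.7%, 27.1% and 27.9%. Per exonic length the Jun family sum exceeded the Fos family sum 9.3-fold, 4.85-fold and 7.85-fold. Jun messengers thus outnumbered Fos messengers in every library, and least so in replicate 2. With the longest coding transcript as length the ratios were 7.34-fold, 4.23-fold and 6.57-fold.

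**Figure D4:**
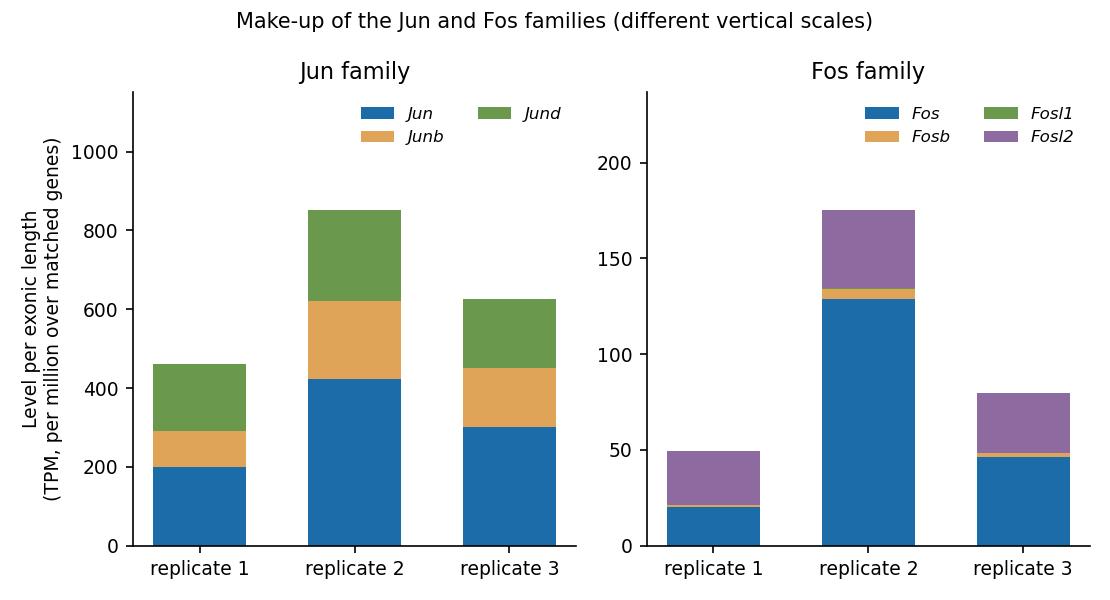
Level per exonic length (TPM) of the Jun genes (left) and the Fos genes (right) in each library, stacked by gene; the vertical scales differ between the panels. The Jun sum is 462 to 852 TPM and the Fos sum 49.7 to 176 TPM, and the share of Fos in its family is largest in replicate 2.

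Related genes were described from 9 lists of 108 genes, named by a rule fixed for all lists; 100 of them were detected. A gene-by-gene test of spread, edgeR's quasi-likelihood dispersion against its trend with Benjamini-Hochberg adjustment, called 15 of 18087 genes (0.0829%) and 1 of the 107 listed genes it could test. Large ratios were also left without a call. Egr3, a listed gene, differed by 4.59-fold between the libraries and was not called. In all, 28 detected genes reached 4-fold, more than the 15 called. A listed gene without a call is therefore not shown to be even between libraries. The listed gene called was Ccn1, a secreted matrix protein induced by serum and flow (39.05, 317.7 and 93.49 CPM, edgeR adjusted p = 0.0408). Its call was lost without replicate 1 (adjusted p = 0.151) and with a robust prior (0.994), over a range of 2.69e-06 to 0.994 in 6 alternatives of edgeR. At an unadjusted p under 0.05 in edgeR there were 23 of the 107, beside 5.18% of all genes tested, and DESeq2 marked 7 as dispersion outliers, beside 0.619%. Several of these genes were known from earlier results of these data to vary.

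Among 26 other immediate early genes 25 were detected, and 8 differed by 2-fold or more between libraries, beside 2.41% of all detected genes. The order of the Fos and Jun genes, lowest in replicate 1 and highest in replicate 2, was that of 16, beside 16.3%. Their median ratio was 1.76-fold. Klf2, a flow-induced factor of endothelium, had the highest CPM of this list, at 843.6, 1556 and 1480 CPM. Zfp36, which speeds the decay of early messengers, had 100.6, 330.6 and 231.8 CPM. Arc, an early gene of neurons, was at 1.916 ± 0.6275 CPM (SD, n = 3) the lowest detected. The list also held genes that were nearly level, such as Mcl1 (442.3, 447.4 and 463.2 CPM), named after its values were seen.

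Of the EGR and NR4A relatives with their co-repressors, Egr3 was the most uneven at 5.117, 23.47 and 6.772 CPM, and Egr2 had 1.391, 3.012 and 1.309 CPM. Both were highest in replicate 2, with replicates 1 and 3 close together, as in Atf3. Nab1, which binds EGR proteins and represses them, was the highest of this list and more even (118.4, 97.33 and 100.5 CPM). Dusp1, the phosphatase that switches MAP kinases off again, led the 10 feedback inhibitors at 243.8, 705.8 and 580.2 CPM. It was the single one of its list at 2-fold or more, beside 2.41% of all detected genes. Dusp5, the lowest detected, had 1.483, 2.225 and 1.288 CPM.

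For the proteins that carry the signal to these genes, messengers differed little between the mice. None of the 13 MAP kinase cascade genes and none of the 6 genes of serum response factor and its partners differed by 2-fold or more, but neither do most genes, with 2.41% of all detected genes at that ratio. Mapk3 (ERK1) had 378.2, 416.8 and 404.2 CPM, and Mapk8 (JNK1), the lowest of the cascade, 22.61, 18.83 and 17.58 CPM. The most uneven of the cascade were Rps6ka5 (22.23, 23.8 and 17.13 CPM) and Rps6ka3 (169.6, 132.4 and 128.2 CPM). Among the partners of serum response factor, Mrtfb had 297.8, 268.5 and 249.6 CPM and Elk1 19.05, 22.31 and 21.91 CPM. The medians of the lists were 1.15-fold and 1.12-fold, both below the 1.2-fold of all detected genes.

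Of 12 other basic leucine zipper genes, among them partners in AP-1 dimers, 1 (Maff) differed by 2-fold or more, beside 2.41% of all detected genes. The order of the Fos and Jun genes was that of 1 (Batf2, named after its values were seen), beside 16.3%. Atf4, the highest, had 118.9, 135.2 and 145.3 CPM and Batf3, the lowest, 1.306, 1.481 and 1.584 CPM. Maff had 25.23, 24.57 and 57.85 CPM and Jdp2 17.93, 17.36 and 25.56 CPM, both highest in replicate 3. Of 13 textbook targets of AP-1, 8 were detected, 0 at 2-fold or more. With 2.41% of all detected genes at that ratio, so short a list would rarely hold one. The cell cycle gene Ccnd1 led at 87.56, 84.37 and 92.95 CPM, the protease receptor gene Plaur had 22.06, 21.05 and 31.67 CPM, and Timp1, an inhibitor of matrix proteases, 1.729, 1.281 and 1.006 CPM. The order of the Fos and Jun genes was that of 1 of the 8, beside 16.3% of all detected genes. It was Hbegf, a growth factor gene named after its values were seen (50.74, 71.34 and 63.89 CPM). The matrix protease genes Mmp3 and Mmp9 and the cytokine genes Il6, Ccl2 and Lif were not detected, and Mmp3 had no count in replicate 1.

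Of 11 heat shock and stress genes, 0 reached 2-fold, but neither do most genes (2.41% of all detected genes did). Hspb1, the highest of the list, lay between 377.8 CPM in replicate 1 and 636.3 CPM in replicate 3. Gadd45g had 21.26, 37.21 and 22.95 CPM and Gadd45a, the lowest, 9.182, 8.098 and 11.37 CPM. The 10 reference genes had a median ratio of 1.12-fold. Actb had 3064, 3191 and 2855 CPM, and the most uneven, Hprt, 148.1, 114.8 and 125.9 CPM.

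**Figure D5:**
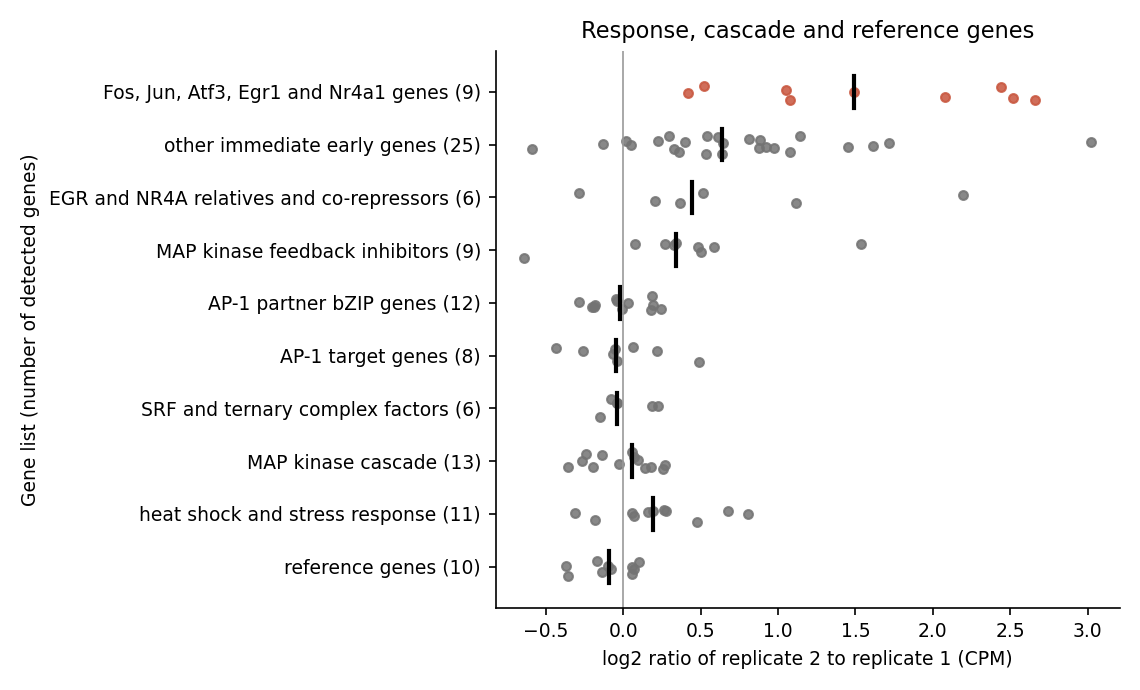
The log2 ratio of replicate 2 to replicate 1 for each detected gene (points) of the Fos, Jun, Atf3, Egr1 and Nr4a1 group (red) and of 9 lists of related genes (grey); black bars are list medians. The median is 1.49 for the red group, 0.64 for other immediate early genes, 0.06 for the MAP kinase cascade and -0.09 for reference genes.

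The genes whose profile over the 3 libraries was most like that of Fos were found by the Euclidean distance between centred log2 CPM profiles, over 9499 genes with a mean of 10 CPM or more outside the group. With 3 points many genes can lie close by, and the distance is a description. The 5 nearest were Ccn1 (distance 0.29), the secretory granule gene Chga (0.41), the venous chemokine receptor Ackr1 (0.49; 31.62, 147.3 and 47.14 CPM), the adhesion molecule gene Icam1 (0.58; 83.22, 297.7 and 156.4 CPM) and Egr3 (0.60). Chga, a gene of endocrine cells, had 16.09, 101.4 and 27.07 CPM, and it was highest in the library with the pituitary messengers. Within the group Nr4a1 (0.17) was closer to Fos than any of these, and Egr1 (0.29) had 1 gene outside the group, Ccn1, closer to Fos than itself. Atf3 lay at 0.85, Junb at 1.14 and Jun at 1.15. Fosl2 (1.51) and Jund (1.59) were farther from Fos than 122 and 227 of the 9499 genes, so most of these lay farther still. The profiles were centred but not scaled, so the distance also counts the size of the differences. Fosl2, with log2 deviations of -0.24, 0.28 and -0.04, had the library order of Fos over a narrower range. Fosb, with a mean of 5.112 CPM, was under the 10 CPM limit.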

How the data were processed

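The authors deposited raw counts, whole numbers, for each gene symbol. Per the submitters' processing notes the authors used featureCounts and Subread 1.4.6-p5 on build GRCm39; aligner, annotation, strand setting, treatment of multiply mapping reads and the counting of pairs have no entry in the sources used here. Columns were mapped to replicates by library name. The samples were taken as separate mice on the series' design text. No library is a copy of another (chi-square between pairs, averaged over genes, 179 to 252). CPM were computed with edgeR 4.0.16 (TMM, R 4.3.3) and handled in Python 3.11.15; detection meant 1 CPM in every library. Floors are 3 counts, 0.0207 to 0.0231 CPM. Levels per length used exonic lengths of GENCODE M21 (49083 genes by symbol, 98.3% of counts). Spread was tested in edgeR with an intercept-only quasi-likelihood fit on 18087 genes kept by filterByExpr, and compared with DESeq2 1.42.0. Members and lists were chosen with earlier results of these data known. Named related genes were the highest, the lowest detected, the 2 of largest ratio and any called gene of each list, and the 5 genes most like Fos. The planned comparison of protein sequences was not run.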

Additional observations from a re-analysis of the deposited data

How the results depend on the processing

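Under library totals, DESeq2 size factors, totals without pituitary, erythroid and mitochondrial genes, and endothelial scaling, 9 of the 10 genes were detected, and the number at 2-fold or more was 5 to 7. At a 3-fold limit it was 4, and leaving out each replicate gave 2 to 7. Among the genes kept by filterByExpr it was 7, where 8.93% of genes reached 2-fold. Without replicate 1 the share of all detected genes at 2-fold was 1.08%, and without replicate 2 it was 1.23%. No such share was computed for the 3-fold limit, for the other scalings or without replicate 3, so those counts have no background beside them. Without length scaling the mean share of Fos in its family was 27.1% instead of 57.2%, and that of Jun 59.4% instead of 47.1%; exonic length itself makes this difference, and with it the lead of Fos over Fosl2 in replicates 2 and 3. The dispersion test, used for related genes only, called 7 to 80 genes when each replicate was left out, 173 without a filter on low counts, and 0 with a robust prior (785 at an unadjusted p under 0.05 in edgeR), while DESeq2 marked 112; the cause was not tested. No paired analysis was possible because there is 1 group. Depth limits the order of the libraries for Fosl1, whose counting intervals overlap.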

Other observations

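Some early response genes did not follow the order of Fos and Jun; they are named here after their values were seen. Ccn2, like Ccn1 a matricellular gene, had 69.91, 81.8 and 144.7 CPM in replicates 1, 2 and 3, with its highest level in replicate 3. Ptgs2, the inducible cyclooxygenase, had 58.64, 60.85 and 34.98 CPM, lowest in replicate 3. The survival gene Mcl1 was level at 442.3, 447.4 and 463.2 CPM, and Ier5 at 201.5, 184 and 209.2 CPM. Myc had 5.932, 3.942 and 5.504 CPM, lowest in the library with the most Fos.

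Of the other immediate early genes, 19 were matched in the RefSeq promoter table, and 12 of them held TGACG on one strand or the other in at least one window, beside 34.9% of all detected genes in the table.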
